A study of Homo sapiens with 18 samples.

Results

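The 10 genes described here are components of the circadian clock and a pair of repressors that act on it: BHLHE40, BHLHE41, PER1, PER2, PER3, CRY1, CRY2, CLOCK, NR1D1 and DBP. They were chosen by gene symbol, and all 10 were found among the 38055 genes of the whole transcriptome table. HCT116 cells, an epithelial line from a human colorectal carcinoma, were wild type (WT) in every library and were grown in McCoy's 5A medium with serum. Whole cell RNA was taken on day 3 at 50% confluency and on day 5 at 250% confluency, with 3 libraries labelled as biological replicates on each day. The comparison asks how the RNA level of these genes differed between low and high cell density. Day and density changed together and cannot be told apart, and the day 7 whole transcriptome libraries were not analysed here. The study's methods describe daily feeding with fresh medium for cells grown for cell extracts. The time of day at harvest and the interval between feeding and harvest are not given in the sources used here. The libraries measure RNA pooled over all cells of a culture, so more cells with a transcript and more transcript per cell cannot be told apart.

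The clock is a feedback loop of transcription. CLOCK, or its relative NPAS2, pairs with BMAL1 (the product of ARNTL) and activates genes that carry an E-box, among them the PER and CRY genes, NR1D1 and DBP. The PER and CRY proteins then repress CLOCK and BMAL1. NR1D1 (REV-ERB alpha) closes a second loop by repressing ARNTL through ROR elements, and DBP activates genes that carry a D-box. BHLHE40 (DEC1) and BHLHE41 (DEC2) bind E-boxes as repressors and are also known as genes that rise at low oxygen, while PER1 is also known as a rapid responder to serum and cAMP. Cells in ordinary culture run their clocks out of phase with each other unless something aligns them.

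The E-box and D-box matches in the promoters are shown first, since they are the letters through which the members of the loop are known to act on each other. RefSeq promoter windows (GRCh38.p14), from 250 bases before to 50 bases after a start site, were given for all 10 genes, with 13 windows because CLOCK, CRY2 and PER3 each have 2 start sites. Both strands were searched. The E-box CACGTG was found in 3 of the 13 windows, those of BHLHE40, BHLHE41 and PER1, and in 7.26% of all 35116 windows. The D-box, searched as TTATGTAA or TTACGTAA, was found in 2 of the 13 windows, of PER2 and PER3, and in 1.01% of all windows. Variant letters and sites outside the windows were not searched, so a gene without a match here may still carry an E-box or D-box. Positions give the first base of the match, with negative numbers before the start. Each stretch has 30 bases, 5′ to 3′ on the strand of the gene, with the match in capitals.
BHLHE40 E-box at base -245 from the start, plus strand, chr3:4979187-4979216: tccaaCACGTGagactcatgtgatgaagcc
BHLHE41 E-box at base -48 from the start, minus strand, chr12:26125068-26125097: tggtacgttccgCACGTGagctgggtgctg
PER1 E-box at base -173 from the start, minus strand, chr17:8152560-8152589: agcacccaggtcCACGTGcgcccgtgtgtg
PER2 D-box at base -3 from the start, minus strand, chr2:238288595-238288624: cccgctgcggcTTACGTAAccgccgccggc
PER3 D-box at base -177 from its upstream start, plus strand, chr1:7784103-7784132: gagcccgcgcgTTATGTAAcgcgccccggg

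The core of the ROR element, AGGTCA, was found in CRY2, at both of its start sites, and in PER1, against 13.8% of all windows. The core of the hypoxia response element, ACGTG or GCGTG, was found in 12 of the 13 windows and in 48.4% of all windows. It overlaps the E-box, so each E-box above also counts as a hypoxia response core, and BHLHE40, BHLHE41 and PER1 each had at least 1 further core outside it. These matches are descriptions of the letters only, and binding was not measured.

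**Figure D1:**
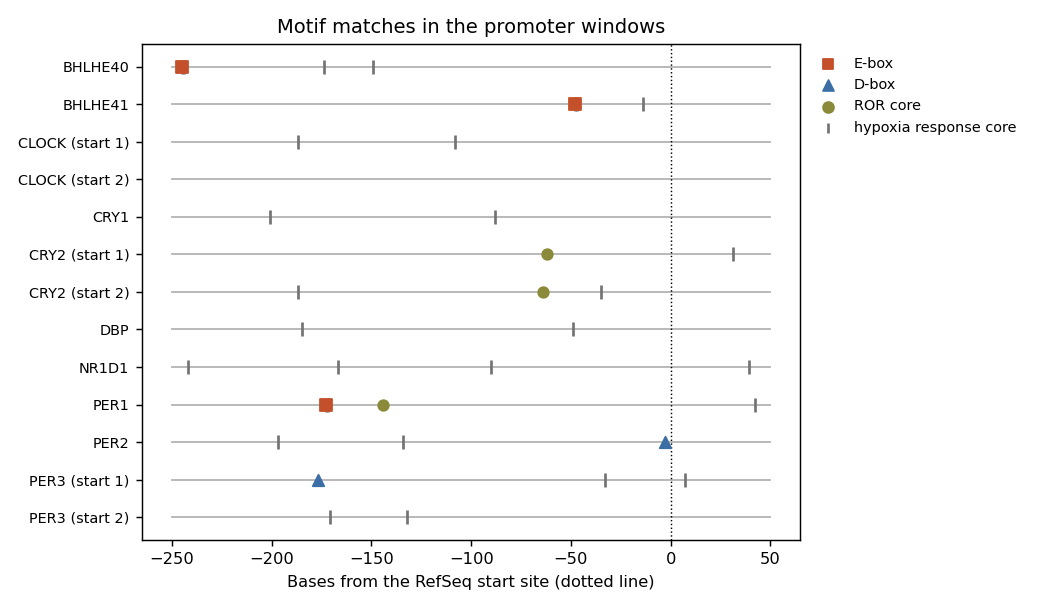
Motif matches in the 13 promoter windows, each drawn as a grey line, by distance in bases from the RefSeq start site (dotted line). Squares mark E-boxes, triangles D-boxes, circles ROR cores and ticks hypoxia response cores; the E-boxes lie at -245, -48 and -173 from the starts of BHLHE40, BHLHE41 and PER1, and each hides the core it contains.

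The values in the table are reads per gene after the authors' scaling, with 1 factor per library, and are called normalized values. Within each library they were whole multiples of 1 read, which put the depth at 27470978 to 56689369 reads on genes, and both extremes were day 3 libraries. Epithelial markers were high in every library. EPCAM, a surface protein of epithelial cells, was nearly level, with a mean of 7227 ± 257 (SD, n = 3) at low and 7236 ± 173 (SD, n = 3) at high density, but the other 4 of the 5 epithelial markers rose, and the list summed to 36899.8, 43731 and 54939 in day 3 replicates 1 to 3 and to 100049 to 101107 on day 5. Its part in the results was not tested. The immune marker PTPRC and the fibroblast marker DCN had at most 7 reads in any library. The 4 of 6 markers of other cell types that the table listed summed to 510.3 to 586 on day 3 and 1102 to 1171 on day 5, nearly all of it COL1A1, and their part in the results was not tested.

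At high density the repressors BHLHE40, BHLHE41, PER1, PER2 and NR1D1 and the activator DBP were higher, the repressor CRY1 was lower, and the activator CLOCK differed little. In limma on log2(value + 1), 6 of the 10 genes rose on day 5, 1 fell and 3 did not pass the test (PER3, CRY2 and CLOCK), at an adjusted p-value threshold of 0.05 over all 20129 genes tested. All 10 were among the genes tested, for which 3 or more libraries had to reach a value of 10. Changes were common between these days: 56.9% of all tested genes passed, 29.3% higher and 27.6% lower. With a minimum of 2-fold, 5 of the 10 genes were higher, against 10.2% of all tested genes, and none was lower, against 7.60%. The median log2 change of the 10 was 1.13, where that of all tested genes was 0.01 with quartiles of -0.49 and 0.53. Libraries of the 2 days did not overlap for 9 of the 10 genes, PER3 being the exception, and for 65.0% of all tested genes. Without overlap and higher on day 5 were 7 of the 10 genes, against 6716 of the 20129 tested genes (33.4%). Of all tested genes, 13092 did not overlap in either direction.

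**Figure D2:**
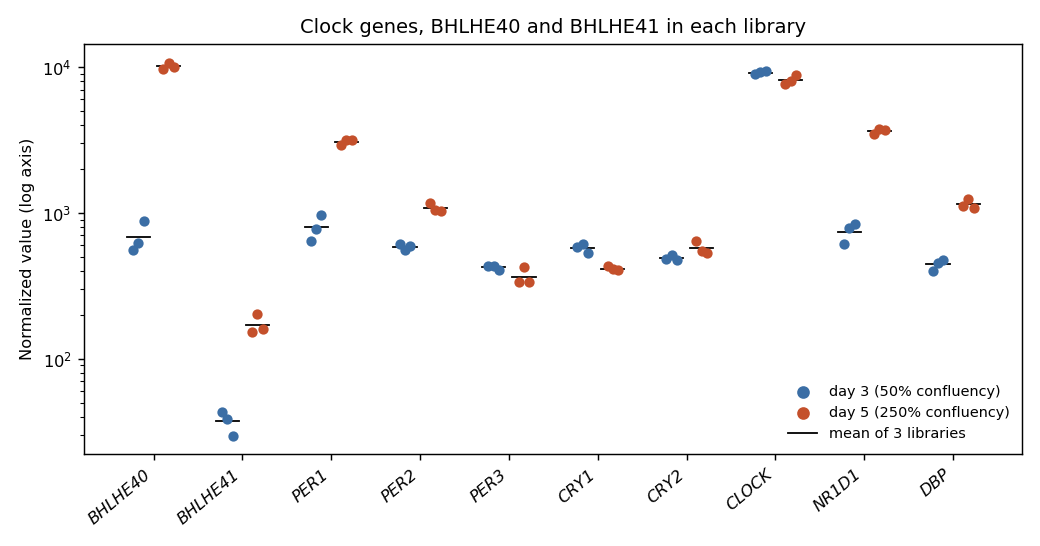
Normalized value (log axis) of each gene in each library, with day 3 in blue, day 5 in orange and black lines for the means of 3 libraries. BHLHE40 moved from between 554 and 873 to between 9729 and 10707, while the values of PER3 on day 5 reached those of day 3.

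BHLHE40 showed the largest change of the group. Its gene lies on chromosome 3 of GRCh38, the build of all coordinates given here, from 4979437 to 4985323, plus strand. The day 3 libraries had normalized values of 554, 618 and 873, and the day 5 libraries 9729, 10707 and 10061. Every day 5 library was thus more than 10 times the highest day 3 library. The mean went from 682 ± 169 (SD, n = 3) to 10166 ± 498 (SD, n = 3), 14.9 times as high. In log2 terms the change was 3.92 (standard error 0.18, limma adjusted p = 0.00014), which placed BHLHE40 at rank 18 among the rises of the 20129 tested genes.

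BHLHE41, its close relative with the same E-box binding role, rose from a far lower level. This gene lies on chromosome 12 from 26120030 to 26125037, minus strand. On day 3 it was at 43.0, 38.9 and 29.8, and on day 5 at 152, 203 and 159. The days did not overlap, although the counts were small, with 21 to 189 reads per library. Its log2 change came to 2.18 (standard error 0.18, limma adjusted p = 0.000305), or 4.60 times as high in the mean. Relative to BHLHE41, BHLHE40 was higher on day 5. The log2 ratio of BHLHE40 to BHLHE41 was 4.15 ± 0.61 (SD, n = 3) on day 3 against 5.89 ± 0.15 (SD, n = 3) on day 5, without overlap. A ratio within a library is free of the scaling across libraries.

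Oxygen response genes, a list of 16 from textbook targets of the hypoxia-inducible factors, are given beside BHLHE40 and BHLHE41 because both are known to rise with them. All 16 rose, against 29.3% of all tested genes, with a median log2 change of 2.33. The list was chosen with earlier results of these data known, so this count is not an independent comparison. The summed level of the 16 genes was 65075 to 73594 on day 3 and 214710 to 250513 on day 5. NDRG1, a stress response gene, had a log2 change of 4.68 (limma adjusted p = 5.6e-05). CA9, a carbonic anhydrase, was near 0 on day 3, at 0.878, 0.618 and 4.25, which are at most 3 reads, and at 204, 178 and 214 on day 5. It entered the test only through the day 5 libraries, and the size of its log2 change depended on the pseudocount, at 6.31 with 1 and 7.09 with 0.1. BHLHE41, at 2.18, lay below the median of the list and BHLHE40 above it. Of the 12714 other genes with a mean value of at least 100, ANKRD37 and PFKFB4 were among the 3 whose profile over the 6 libraries was nearest to BHLHE40, with a root mean square difference of 0.20 and 0.25 on the log2 scale after each gene was centred on its own mean. Both are in the oxygen response list. With libraries of only 2 days, such nearness mainly reflects a like size of change, at log2 changes of 4.10 for ANKRD37 and 3.64 for PFKFB4. ANKRD37, at 57.1, 63.1 and 66.6 on day 3, reached the minimum mean only through the day 5 libraries. The part of oxygen in any of these values was not tested.

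**Figure D3:**
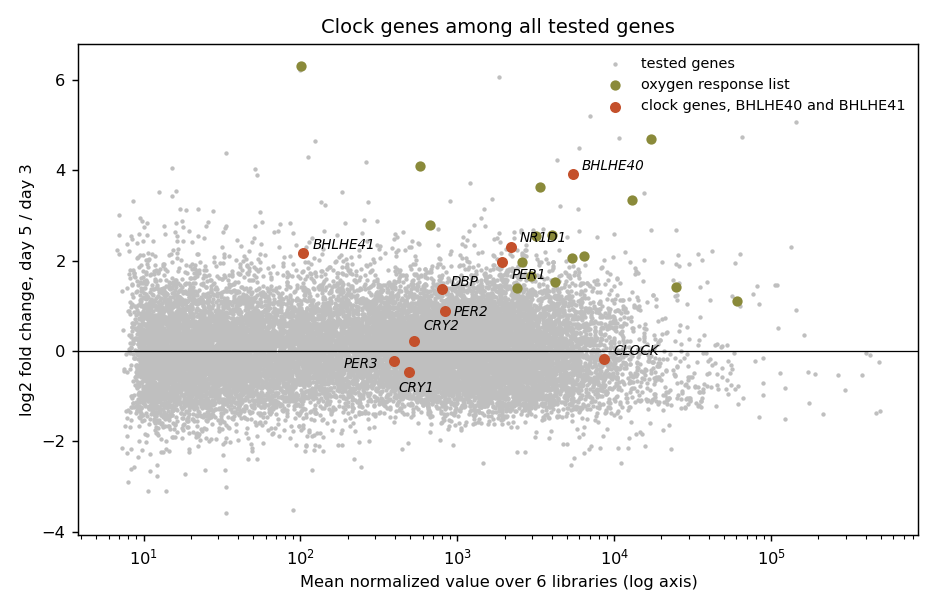
Log2 fold change of day 5 against day 3 over the mean normalized value (log axis) for all 20129 tested genes in grey, the oxygen response list in olive, and the 10 genes in orange. BHLHE40 sits at 3.92 among the oxygen response genes, while CRY2, CLOCK, PER3 and CRY1 lie between 0.22 and -0.47.

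The period genes, whose proteins form the repressor complex with the cryptochromes, did not move together. PER1 (chromosome 17 from 8140472 to 8156506, minus strand) was at 642, 781 and 969.6 on day 3 and at 2939, 3140.4 and 3136 on day 5. All day 5 libraries were more than 3 times the highest day 3 library. Strand alone does not separate PER1 from the 2 annotated genes that overlap it on its own strand. The log2 change was 1.96 (standard error 0.16, limma adjusted p = 0.000296), a mean 3.85 times as high. PER2 (chromosome 2 from 238244044 to 238290102, minus strand) was at 608, 555 and 591 on day 3 and at 1172, 1051 and 1035 on day 5. It rose by less than PER1, with a log2 change of 0.89 (standard error 0.09, limma adjusted p = 0.000485). The log2 ratio of PER1 to PER2 within a library went from 0.43 ± 0.32 (SD, n = 3) to 1.50 ± 0.15 (SD, n = 3), and the days did not overlap. PER3 (chromosome 1 from 7784291 to 7845177, plus strand) was at 430.2, 432 and 408 on day 3 and at 338, 424 and 335.5 on day 5. Replicate 2 of day 5 lay within the day 3 range, and the other 2 lay below it. The log2 change of PER3 was -0.22 with a 95% interval from -0.50 to 0.06 (limma adjusted p = 0.153), and without day 5 replicate 2 it was -0.33 and passed (limma adjusted p = 0.0352). Relative to PER2, PER3 was lower on day 5 in every library, at a log2 ratio of -0.46 ± 0.09 (SD, n = 3) on day 3 against -1.57 ± 0.25 (SD, n = 3) on day 5.

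Relative to the mean, day 3 libraries differed among themselves in PER1 and BHLHE40 more than day 5 libraries did. Replicate 3 of day 3 was the highest and replicate 1 the lowest for BHLHE40, PER1, NR1D1 and DBP. The summed level of 8 immediate early genes, which respond to serum and stress within minutes, followed the same order on day 3, at 7547 in replicate 1, 9391 in replicate 2 and 13932 in replicate 3, and was 15539 to 16457 on day 5. The order was not particular to these genes. The summed oxygen response list had it too, at 65075, 69134 and 73594, as did the epithelial markers, while the markers of other cell types had the reverse. The part of the immediate early genes in the results was not tested. Among these 8 genes, 4 rose (JUNB, EGR1, JUN and IER2), against 29.3% of all tested genes, and none passed as lower, against 27.6%. Their median log2 change was 0.54. The largest rise was that of JUNB, with a log2 change of 1.44 (limma adjusted p = 0.000482), followed by EGR1 with 0.95 (limma adjusted p = 0.0136). FOS stood at -0.68 (limma adjusted p = 0.0523). Among the alternatives, it passed as lower with library totals (limma adjusted p = 0.0414), in DESeq2 and edgeR (adjusted p = 0.027 and 0.000466) and, at -0.89, without day 3 replicate 1 (limma adjusted p = 0.0171). FOSB stood at -0.71 (limma adjusted p = 0.199), and among the alternatives it passed as lower without that library (limma adjusted p = 0.0359) and in edgeR (adjusted p = 0.0128). JUN no longer passed without day 3 replicate 2 or day 5 replicate 3 (limma adjusted p = 0.0502 and 0.0651). For PER1, leaving out any 1 library gave log2 changes that still passed, and over all alternatives they ran from 1.82 to 2.12.

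The cryptochromes, the partners of the PER proteins, differed: CRY1 fell and CRY2 did not pass the test. CRY1 (chromosome 12 from 106991364 to 107093549, minus strand) was at 584, 614 and 529 on day 3 and at 431, 409 and 405 on day 5. All day 5 libraries lay below all day 3 libraries. CRY1 fell by 0.47 on the log2 scale (standard error 0.09, limma adjusted p = 0.00503), to 0.721 of its day 3 mean. CRY2 (chromosome 11 from 45847118 to 45883248, plus strand) was at 486, 511 and 475 on day 3 and at 645, 548 and 531 on day 5. The days did not overlap for CRY2, but its log2 change of 0.22 did not pass, with a 95% interval from -0.02 to 0.47 (limma adjusted p = 0.106). Within each library, the log2 ratio of CRY1 to CRY2 turned from 0.23 ± 0.06 (SD, n = 3) to -0.46 ± 0.10 (SD, n = 3). The genes with profiles nearest to CRY1, the called gene of the 10 with the largest fall, were ZNF566, CEP128 and CAP2, each within 0.04 on the log2 scale over 6 libraries.

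NR1D1, the nuclear receptor that represses ARNTL, rose too. Its gene spans chromosome 17 from 40092793 to 40100589, minus strand, and overlaps THRA on the other strand. The strand-specific counting that the authors describe would separate NR1D1 from THRA, but whether the deposited values came from it was not checked. NR1D1 was at 608, 786 and 834 on day 3 and at 3464, 3745 and 3706 on day 5. The lowest day 5 library was thus more than 4 times the highest on day 3. In log2 terms the change was 2.30 (standard error 0.14, limma adjusted p = 0.000184), a mean 4.90 times as high. Its relative NR1D2 (REV-ERB beta), which has the same role, did not follow. NR1D2 went from 5317 ± 168 (SD, n = 3) to 4562 ± 232 (SD, n = 3), a log2 change of -0.22. It missed the threshold in limma (adjusted p = 0.0516) and passed in DESeq2 and edgeR on the recovered reads (adjusted p = 0.0109 and 0.00668). The log2 ratio of NR1D1 to NR1D2 within a library went from -2.85 ± 0.21 (SD, n = 3) to -0.33 ± 0.08 (SD, n = 3), the largest shift of the 7 gene pairs compared.

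DBP, the activator of D-box genes, also rose. It lies on chromosome 19 from 48630030 to 48637379, minus strand, with SPHK2 overlapping it on the other strand. Its values were 402, 457 and 472 on day 3 and 1113, 1243 and 1077 on day 5. Every day 5 library was more than 2 times the highest day 3 library. Its log2 change came to 1.37 (standard error 0.10, limma adjusted p = 0.000257), a mean 2.58 times as high. Of the other D-box factors, NFIL3, a repressor at the same sites, rose with a log2 change of 0.91 (limma adjusted p = 0.00154), and TEF, an activator, rose with 0.67 (limma adjusted p = 0.0134). HLF, the remaining activator, was low, at 92.2 ± 12.8 (SD, n = 3) and 72.2 ± 15.0 (SD, n = 3), and did not pass (limma adjusted p = 0.154). The log2 ratio of DBP to NFIL3 went from -0.39 ± 0.09 (SD, n = 3) on day 3 to 0.06 ± 0.21 (SD, n = 3) on day 5.

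CLOCK, the activator, did not pass the test. Its gene lies on chromosome 4 from 55427903 to 55546909, minus strand, where 2 annotated genes overlap it on its own strand. Strand alone does not separate these from CLOCK. CLOCK was at 8901, 9163 and 9314 on day 3 and at 7676, 8008 and 8762 on day 5. All day 5 libraries lay below all day 3 libraries, by little. The log2 change was -0.17 with a 95% interval from -0.37 to 0.04 and did not pass (limma adjusted p = 0.136), whereas edgeR on the recovered reads called it lower, at -0.17 (adjusted p = 0.0397). Of the other genes of the activator class, 1 rose and 1 fell. NPAS2, which can stand in for CLOCK, rose from 723 ± 59.9 (SD, n = 3) to 1429 ± 29.4 (SD, n = 3), a log2 change of 0.98 (limma adjusted p = 0.000393). ARNTL2 (BMAL2) fell from 2054 ± 124 (SD, n = 3) to 1075 ± 89.6 (SD, n = 3), a log2 change of -0.93 (limma adjusted p = 0.000558). ARNTL, which encodes BMAL1 and is the known target of NR1D1, went from 609 ± 17.7 (SD, n = 3) to 706 ± 41.4 (SD, n = 3). Its log2 change of 0.21 had a 95% interval from 0.02 to 0.41 and did not pass after adjustment (limma adjusted p = 0.0635). It passed with each library divided by its own total (limma adjusted p = 0.04) and in edgeR on the recovered reads (adjusted p = 0.0471). The log2 ratio of CLOCK to ARNTL fell from 3.90 ± 0.07 (SD, n = 3) to 3.53 ± 0.06 (SD, n = 3), without overlap.

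The remaining genes of the pathway were taken as a list of 28, of which 27 were in the table and 24 were tested. On day 5, 12 of the 24 rose and 3 fell, where 29.3% of all tested genes rose and 27.6% fell. In either direction 15 of the 24 passed, against 56.9% of all tested genes. The other 9 did not pass, and the median log2 change of the 24 was 0.34. RORA and RORB, activators that oppose NR1D1, had at most 14 reads in any library and were not tested. CIART, a repressor of CLOCK and BMAL1, had at most 14 reads and was not tested. Kinases that phosphorylate the PER and CRY proteins were mostly higher. CSNK1D (casein kinase 1 delta) had a log2 change of 0.77 (limma adjusted p = 0.000506), CSNK1E (casein kinase 1 epsilon) 0.70 (limma adjusted p = 0.000732) and GSK3B 0.68 (limma adjusted p = 0.00117). CSNK1A1, a further casein kinase, stood at -0.02 (limma adjusted p = 0.883).

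Ubiquitin ligase subunits that mark the PER proteins for degradation went both ways. BTRC rose by 0.38 on the log2 scale (limma adjusted p = 0.00782) and FBXW11, its relative, fell by 0.26 (limma adjusted p = 0.0342). The call of FBXW11 was lost without any 1 library other than day 3 replicate 1 (limma adjusted p = 0.0562 to 0.102). USP2, a deubiquitinase, rose with a log2 change of 0.69 (limma adjusted p = 0.0235), a call lost without day 3 replicate 2, day 5 replicate 1 or day 5 replicate 2 (limma adjusted p = 0.0504 to 0.0663). SIRT1, a deacetylase, stood at -0.07 (limma adjusted p = 0.538). TIPIN and TIMELESS, a protein pair best known from the replication fork, moved in opposite directions. TIPIN fell by 1.22 (limma adjusted p = 0.00028) and TIMELESS rose by 0.31 (limma adjusted p = 0.0356), both on the log2 scale. The call of TIMELESS was lost without any 1 library other than day 3 replicate 3 (limma adjusted p = 0.0502 to 0.104).

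Output genes, known to follow the clock in other tissues, rose in 3 of 5 cases, against 29.3% of all tested genes. The Krüppel-like factor KLF9 rose by 1.46 on the log2 scale (limma adjusted p = 0.000235), its relative KLF10 by 1.20 (limma adjusted p = 0.000281), and TSC22D3, which is also a glucocorticoid response gene, by 1.11 (limma adjusted p = 0.00252). WEE1, a kinase that restrains entry into mitosis and has a known E-box, stood at 0.14 with a 95% interval from -0.07 to 0.35 (limma adjusted p = 0.21). NAMPT, the enzyme that sets NAD supply, stood at 0.11 with a 95% interval from -0.08 to 0.31 (limma adjusted p = 0.257).

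**Figure D4:**
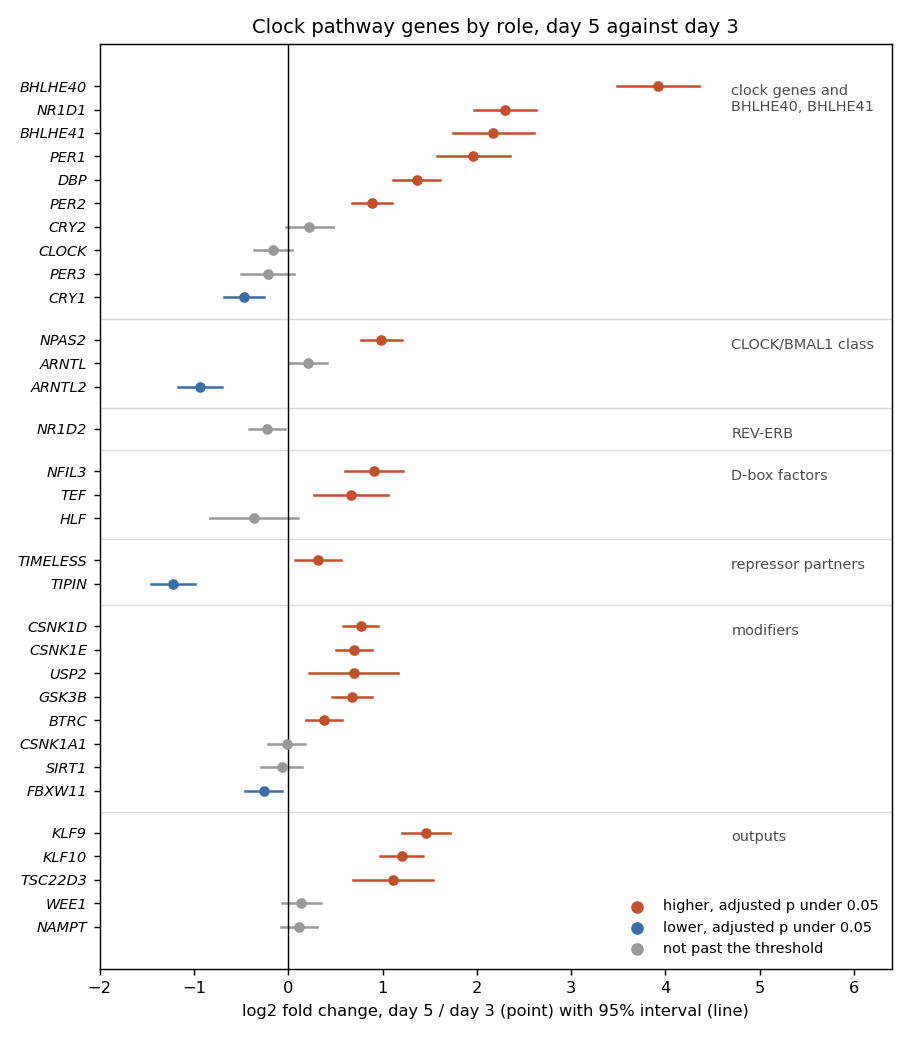
Log2 fold change of day 5 against day 3 (points) with 95% intervals (lines) for the 10 genes and the other clock genes with values in the text, by role, orange where higher and blue where lower past the threshold, and grey otherwise. BHLHE40 leads at 3.92, and the intervals of CRY2, CLOCK and PER3 cross 0.

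Levels were compared between genes only per length, as the normalized value per kilobase of exon (union of all annotated exons, GENCODE release 44). The libraries were rRNA-depleted and the authors mapped reads to gene regions as well as transcripts, so reads from introns may be counted. The part of such reads in the order here and in the family shares below was not tested. On day 3 CLOCK led with 791 ± 18.1 per kilobase (SD, n = 3), followed by NR1D1 with 282 ± 45.1 and BHLHE40 with 194 ± 48.1, and these last 2 overlapped. CRY1 with 120.3 ± 9.02 and PER1 with 114 ± 23.5 came next and overlapped, as did PER2 with 82.5 ± 3.78 and CRY2 with 79.1 ± 3.01. DBP with 68.4 ± 5.67, PER3 with 52.1 ± 1.63 and BHLHE41 with 9.66 ± 1.76 closed the order. On day 5 BHLHE40 led with 2891 ± 141 per kilobase (SD, n = 3), ahead of NR1D1 with 1383 ± 57.9, CLOCK with 707 ± 48.3 and PER1 with 439 ± 16.4, none of which overlapped its neighbour. DBP with 176 ± 13.5 and PER2 with 153 ± 10.6 followed. CRY2 with 92.7 ± 9.94 and CRY1 with 86.8 ± 2.86 overlapped, and so did PER3 with 45.0 ± 6.22 and BHLHE41 with 44.4 ± 7.10 at the bottom. The length matters most for DBP, whose exon union of 6485 bases exceeds its canonical transcript of 2170 bases. With canonical transcript lengths, a choice made after seeing the data, DBP moved from place 8 to place 4 on day 3 and kept place 5 on day 5. On day 3 CRY1 and PER1 then came at places 5 and 6. PER2 moved from place 6 to place 8, below CRY2 without overlap (91.6 against 118.7). The order on day 5 was unchanged.

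Shares of each gene family per length, which are free of the scaling across libraries, also shifted between the days. PER1 held 45.5% ± 5.55 (SD, n = 3) of the summed PER level on day 3 and 68.9% ± 1.78 (SD, n = 3) on day 5, while PER3 went from 21.1% ± 2.36 to 7.06% ± 0.855. NR1D1 held 23.4% ± 2.62 (SD, n = 3) of the NR1D level on day 3 and 63.7% ± 1.27 (SD, n = 3) on day 5, so the order of NR1D1 and NR1D2 was reversed. CRY1 went from 60.3% ± 1.06 to 48.4% ± 1.79 of the CRY level, or from 61.8% to 50.0% with canonical transcript lengths, and NPAS2 from 6.82% ± 0.634 to 13.9% ± 0.707 of the level of CLOCK and NPAS2. With canonical transcript lengths the share of NPAS2 was higher on both days, at 17.1% and 31.4%. BHLHE41 made up 5.02% ± 1.84 of the level of its pair with BHLHE40 on day 3 and 1.51% ± 0.163 on day 5. In each of these families the libraries of the days did not overlap. Summed over the family, the PER level per kilobase went from 248 ± 21.4 (SD, n = 3) to 637 ± 11.2 (SD, n = 3), whereas the CRY level was 199 ± 11.9 on day 3 and 179 ± 12.8 on day 5, with overlap between the days.

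**Figure D5:**
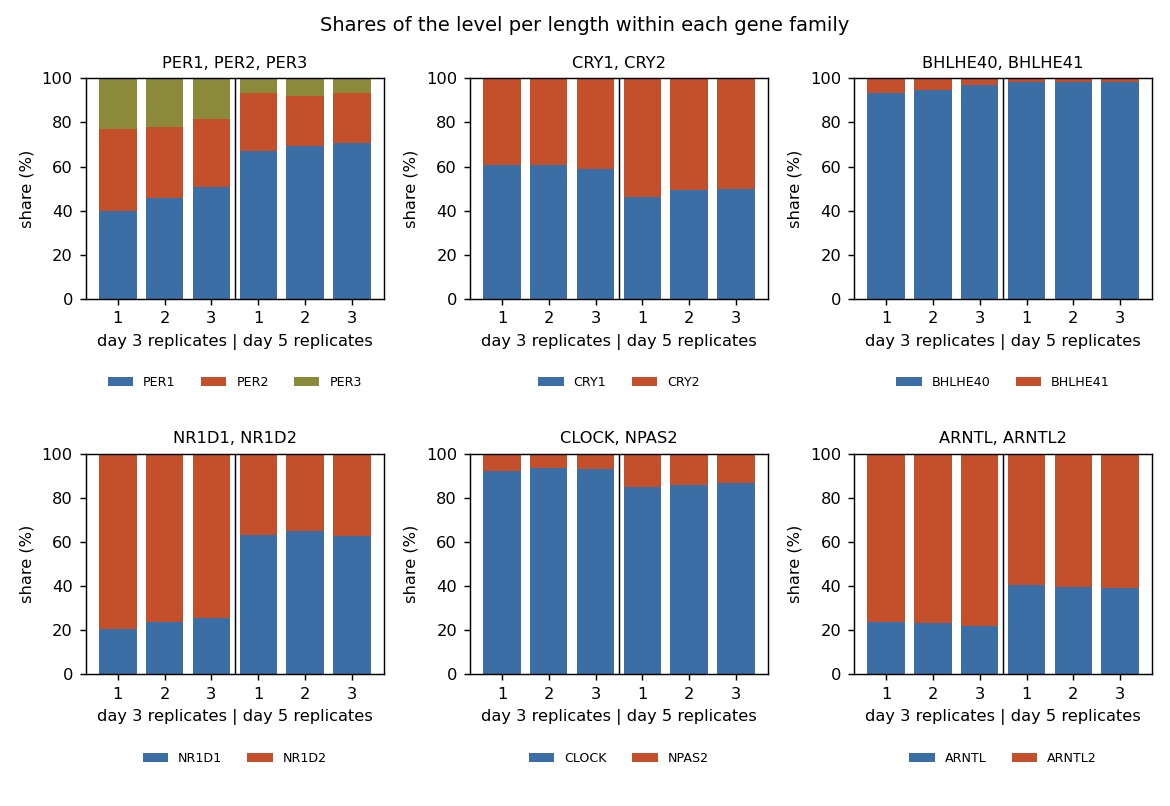
Share (%) of each gene in the level per kilobase of its family, as 1 stacked bar for each library, with day 3 replicates on the left and day 5 replicates on the right of each panel. NR1D1 grows from 23.4% to 63.7% of its pair and PER1 from 45.5% to 68.9% of the PER genes on average.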

How the data were processed

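The authors mapped whole transcriptome reads of HCT116 cells strand-specifically to Ensembl genes of hg38 with CLC Genomics Workbench, and per the labels and methods used FastQC 0.11.8, MultiQC 1.7 and molecular identifiers. The deposited signal is a normalized value per gene and library for 38055 genes. Whether the deposited values came from that strand-specific mapping was not checked. These values were whole multiples of 1 read (100% of values, within 0.01 read), so reads were recovered. The deposited table also lists the authors' own mean signal, test scores and p-values, which were not used, and the small RNA tables were not used.

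Here, limma 3.58.1 in R 4.3.3 was fitted to log2(value + 1) of 3 day 3 and 3 day 5 libraries, for the 20129 genes that reached a value of 10 in 3 or more libraries, with Benjamini-Hochberg adjustment at 0.05. Fold changes on that scale understate changes of weakly expressed genes. P-values measure the spread between libraries labelled as biological replicates. DESeq2 1.42.0 and edgeR 4.0.16 on recovered reads, other scalings, filters and pseudocounts, a replicate block and leaving out libraries were the alternatives. The fit was first run on simulated data with known 2-fold changes, of which it called 140 of 189 (74.1%), with 7 false calls. The spread of the simulated counts was set and not taken from these libraries. A gene that did not pass may therefore still differ between the days. Tables and figures used Python 3.11.15 (pandas 2.3.3, numpy 2.4.6, matplotlib 3.10.9).

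The members and gene lists were chosen with earlier results of these data known. Named were all 10 members, the other clock genes by role, the leading genes past the threshold in the 2 further lists, with FOS and FOSB added after their values were seen, and the 3 genes nearest in profile to BHLHE40 and to CRY1. A few genes that this rule names are not reported here. FBXL21 was not analysed here. With 3 libraries against 3, an exact permutation test cannot go below p = 0.1, so within-library ratios and shares are given without a test. Loci and lengths are from GENCODE release 44 on the same build, hg38 (GRCh38), and promoters from RefSeq.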

Additional observations from a re-analysis of the deposited data

How the results depend on the processing

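The 10 members kept their direction under all 12 alternatives of the fit, and the 7 called ones kept their call. In 118 of 120 member values the side of the threshold was the same, and the other 2 were PER3 without day 5 replicate 2 and CLOCK in edgeR, which then passed. A 2-fold minimum left 5 members, 3589 of the 11450 genes called in all, 4 of the 15 other clock genes called and 1 of the 4 immediate early genes. Without the filter on low values, TEF, TIMELESS, BTRC, FBXW11, USP2 and JUN no longer passed (adjusted p = 0.0508 to 0.161). CSNK1A1 and NR4A1, called in no fit, changed sign. The log2 fold change of CSNK1A1 was 0.051 with library totals and ran from -0.057 to 0.034 with a library left out. That of NR4A1 was -0.11 in DESeq2, -0.075 in edgeR and -0.32 to 0.46 with a library left out, below 0 without day 3 replicate 1 or 2. Leaving out a day 5 library left 15 oxygen response genes, as CA9 no longer met the minimum.

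Correlations of same-numbered deviations were -0.01, 0.03 and 0.02, and 1 of 3 day 3 libraries correlated best with its own number. These few correlations gave no sign of pairing by replicate number. They cannot show that same-numbered cultures were grown or processed apart. With the replicate number as a block, 10533 genes passed in place of 11450, the same number of members (7), 13 other clock genes, 16 oxygen response genes and 6 immediate early genes. Under the block TIMELESS, FBXW11 and USP2 no longer passed (adjusted p = 0.0576, 0.0673 and 0.0517), and HLF, FOS and FOSB passed as lower (adjusted p = 0.0427, 0.0292 and 0.0349). Depth limits BHLHE41, RORA, RORB and CIART most, whose reads numbered 189 or fewer per library.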
